A study of Mus musculus with 10 samples.

Results

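The genes described here code for the proteins that hold epithelial cells together and seal the space between them. They are 37 genes chosen by symbol: 19 of tight junctions, 10 of adherens junctions, 6 of desmosomes and 2 of gap junctions. Each was matched through its Ensembl identifier on GRCm38 to 1 of the 45706 genes in the deposited table. All 37 were among the 25146 tested genes, those that averaged 1 count or more per library. The study compared uteri of 5 control *Arid1a f/f* mice with uteri of 5 *Ltf iCre/+ Arid1a f/f* mice, called knockout uteri below. All were adult females at gestation day (GD) 3.5, when the uterus prepares for an embryo to implant. Mice of both genotypes carried floxed *Arid1a*, which encodes a subunit of the SWI/SNF chromatin remodelling complex. Only the knockouts carried iCre, expressed from the lactoferrin (*Ltf*) locus to delete *Arid1a* in the endometrial epithelium. RNA came from whole uterus, so stroma, myometrium, vessels and immune cells, which this epithelial deletion is not directed at, are in every value. Cre from this locus has been reported in some myeloid immune cells, so deletion there is possible.

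Tight junctions lie at the top of the lateral membrane, where claudins form the barrier or pores between cells and ZO proteins tie them to actin. Adherens junctions join cells through cadherins and nectins, desmosomes anchor keratin filaments, and gap junctions are channels of connexins that let small molecules pass between cells. In the rodent uterus the luminal epithelium remodels these contacts as it becomes receptive, and the stroma and myometrium have junctions of their own.

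Of the 37 genes, 14 were called higher and 4 lower in knockout uteri by edgeR's quasi-likelihood test (Benjamini-Hochberg adjusted over all tested genes, threshold 0.05). Among all tested genes 9.70% were called, 5.19% as higher and 4.51% as lower. Values of 17 of the 37 did not overlap between the genotypes, 14 of them higher and 3 lower in knockouts, against 10.7% of all tested genes (5.53% higher and 5.16% lower). The log2 fold change of knockout against control was positive for 29 of the 37, with a median of 0.41, where the median of all tested genes was 0.03. By class, 7 tight junction genes were higher and 3 lower (median log2 fold change 0.51), and 3 adherens junction genes were higher and 1 lower (median 0.26). Of the desmosome genes, 3 were higher and none lower (median 0.71), with 6 of 6 fold changes positive. The 2 gap junction genes split, with *Gjb2* at 5.81 and *Gja1* at 0.08. Within the tight junction class the claudins and the other genes differed in their counts: 2 of 12 claudins were higher and 2 lower (median 0.07), and 5 of the other 7 genes were higher and 1 lower (median 0.69).

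**Figure D1:**
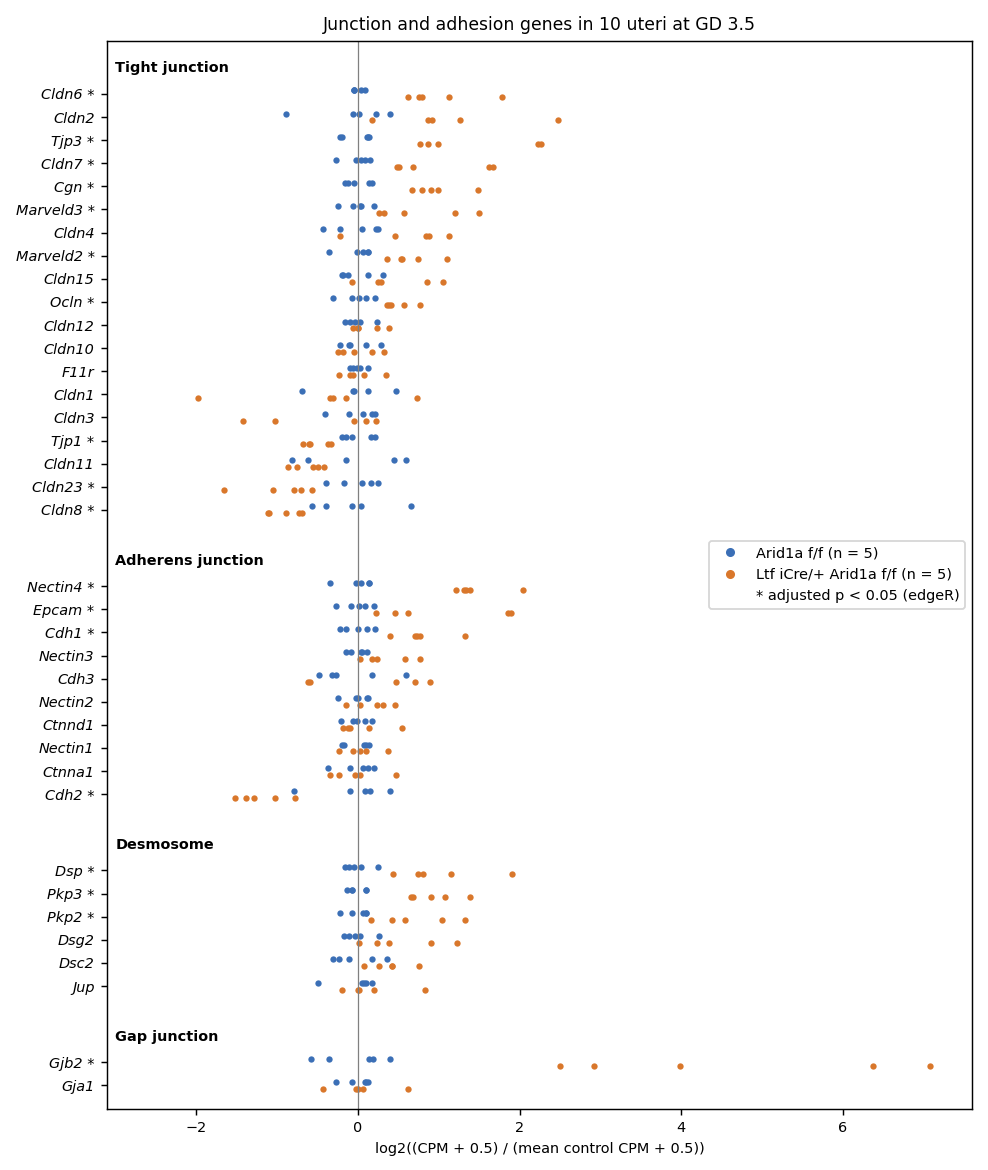
Level of the 37 junction and adhesion genes in each uterus, as the log2 ratio of its CPM plus 0.5 to the mean control CPM plus 0.5, with controls in blue and knockouts in orange, 1 point per uterus. *Gjb2* reaches furthest to the right, 3 tight junction genes marked as called (*Tjp1*, *Cldn23* and *Cldn8*) lie to the left, and *Cdh2* is the adherens junction gene that lies to the left.

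Promoter sequences are shown for the 5 genes that were higher under both scalings of the libraries described further on (*Cldn6*, *Tjp3*, *Nectin4*, *Dsp* and *Gjb2*), since their rise did not depend on that choice. Each is 280 bases of GRCm38.p6 from RefSeq in the direction of the gene, of which 250 lie before the RefSeq transcription start. Capitals mark CAGGTG on either strand, an E-box that factors of the ZEB and SNAI families are known to bind.
*Cldn6*, chr17:23679115-23679394, plus strand: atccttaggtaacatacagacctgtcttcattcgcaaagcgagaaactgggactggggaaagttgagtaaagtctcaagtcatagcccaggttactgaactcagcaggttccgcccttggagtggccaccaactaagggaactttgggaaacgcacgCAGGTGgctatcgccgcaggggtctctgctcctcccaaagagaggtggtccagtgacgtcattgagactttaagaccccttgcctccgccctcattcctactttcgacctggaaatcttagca
*Tjp3*, chr10:81291552-81291831, minus strand: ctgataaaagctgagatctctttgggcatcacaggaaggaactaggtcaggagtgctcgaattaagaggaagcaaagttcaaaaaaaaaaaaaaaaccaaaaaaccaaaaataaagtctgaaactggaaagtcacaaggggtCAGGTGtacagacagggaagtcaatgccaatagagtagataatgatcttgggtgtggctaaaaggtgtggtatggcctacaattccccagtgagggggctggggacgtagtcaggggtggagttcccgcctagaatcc
*Nectin4*, chr1:171369923-171370202, plus strand: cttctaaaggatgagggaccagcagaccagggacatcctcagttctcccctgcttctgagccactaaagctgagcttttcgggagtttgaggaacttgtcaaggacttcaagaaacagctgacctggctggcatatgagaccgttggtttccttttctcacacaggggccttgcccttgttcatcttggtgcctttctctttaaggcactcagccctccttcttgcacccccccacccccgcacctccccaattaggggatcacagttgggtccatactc
*Dsp*, chr13:38151044-38151323, plus strand: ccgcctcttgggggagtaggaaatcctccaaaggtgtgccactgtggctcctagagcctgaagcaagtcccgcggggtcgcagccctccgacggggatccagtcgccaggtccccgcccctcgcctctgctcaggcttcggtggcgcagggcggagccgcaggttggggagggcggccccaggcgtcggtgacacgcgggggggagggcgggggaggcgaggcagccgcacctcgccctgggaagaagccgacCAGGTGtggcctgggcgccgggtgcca
*Gjb2*, chr14:57104673-57104952, minus strand: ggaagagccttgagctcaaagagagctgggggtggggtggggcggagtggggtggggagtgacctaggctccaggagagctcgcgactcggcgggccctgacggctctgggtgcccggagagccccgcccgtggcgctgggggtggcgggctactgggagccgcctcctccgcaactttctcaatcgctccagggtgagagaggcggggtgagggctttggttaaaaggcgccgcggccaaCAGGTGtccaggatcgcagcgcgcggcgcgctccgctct
The first base of the match lay at -93 of the start in *Cldn6*, -108 in *Tjp3*, 4 in *Dsp* and -9 in *Gjb2*, and *Nectin4* had no match in this stretch. RefSeq windows, 250 bases before the start to 50 after it, were at hand for 25 of the 37 genes. CAGGTG on either strand was present in 12 of the 25 (48.0%), against 22.6% of 27025 genes with a window and 20.2% of all 32851 windows. It was found in 8 of the 10 genes called higher that had a window (*Cldn6*, *Cldn7*, *Ocln*, *Marveld2*, *Tjp3*, *Epcam*, *Dsp* and *Gjb2*). Of the 14 genes not called, 4 held it (*Cldn3*, *Cldn4*, *F11r* and *Nectin2*), and the 1 gene called lower with a window, *Tjp1*, did not. A second sequence, TGANTCA, the AP-1 motif, was present in 4 of the 25 genes (16.0%) against 8.97% of all genes, in none of the 10 called higher and in 4 of the 14 not called. No match of one sequence overlapped a match of the other in these genes. The letters describe the windows and were not tied to binding.

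In control uteri the levels per kilobase of exon, the scale on which genes can be compared, ran from 127 ± 21 CPM per kb (SD, n = 5) for *Cldn3*, a barrier-forming claudin, to 0.00871 ± 0.0126 for *Cldn6*. *Cldn3* stood apart from every other gene. It was followed by *Cdh1* (51.9 ± 6.37 CPM per kb), *Ctnna1* (46.2 ± 6.88), *Epcam* (40.4 ± 4.94), *F11r* (36.7 ± 2.31), *Tjp1* (32.5 ± 4.29) and *Cldn7* (28.1 ± 3.03). The ranges of the 5 control uteri overlapped for 31 of the 36 pairs of neighbours in this order, so most neighbours could not be told apart. The most abundant desmosome gene was *Jup* (10.5 ± 1.74 CPM per kb), and *Gja1* (16.6 ± 1.83) exceeded *Gjb2* (1.44 ± 0.441). With the longest transcript in place of merged exons *Ctnna1* stood at 79.6 and *Gja1* at 43.8 CPM per kb, and *Cldn3* remained the highest at 127.

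Among the claudins, *Cldn7* and *Cldn6* rose and *Cldn23* and *Cldn8* fell. *Cldn7* (ENSMUSG00000018569, chr11:69964779-69967885) codes for a claudin found along the whole lateral membrane of many epithelia. It stood at 56.0, 60.6, 45.2, 58.1 and 53.7 CPM in control replicates 1 to 5 and at 169, 77.0, 77.8, 88.1 and 176 CPM in knockout replicates 1 to 5. Every knockout uterus was above every control, and replicates 1 and 5 were far above the other three. The mean rose from 54.7 ± 5.91 to 118 ± 50.6 CPM (SD, n = 5), a log2 fold change of 1.10 (standard error 0.25, edgeR adjusted p = 0.0184), which was 1.03 without control replicate 3 (adjusted p = 0.0546). *Cldn6* (ENSMUSG00000023906, chr17:23679249-23682446), known from embryonic epithelia, was close to the detection limit in controls, at 0.0280, 0, 0.0470, 0 and 0 CPM. It reached 1.27, 0.372, 0.621, 0.392 and 0.289 CPM in knockouts. No control library held more than 3 counts of *Cldn6*, so against a floor of 3 counts per library the knockout mean of 0.589 CPM was at least 13.6-fold higher (edgeR adjusted p = 0.00367). It supplied 0.152 ± 0.116% of the summed claudin level in knockouts, the lowest mean share of the 12 claudins.

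*Cldn23* (ENSMUSG00000055976, chr8:35824712-35826559) was measured at 26.1, 40.8, 30.6, 38.5 and 35.7 CPM in controls and 16.4, 20.9, 23.0, 19.7 and 10.6 CPM in knockouts, with no overlap. Its log2 fold change was -0.92 (standard error 0.20, edgeR adjusted p = 0.0159), and it was called with any 1 uterus left out. *Cldn8* (ENSMUSG00000050520, chr16:88560828-88563183), a barrier-forming claudin best known from the kidney and colon, had 9.61, 7.54, 6.63, 16.2 and 10.4 CPM in controls and 4.42, 4.43, 5.20, 6.07 and 5.90 CPM in knockouts. The groups did not overlap, though control replicate 3 lay close to the highest knockout. *Cldn8* fell by a log2 fold change of -0.95 (standard error 0.23, edgeR adjusted p = 0.0275). The call was lost without control replicate 4 (-0.71, adjusted p = 0.0532), control replicate 5 (-0.95, 0.0576), knockout replicate 1 (-0.90, 0.0558) or knockout replicate 2 (-0.90, 0.0526).

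The other 8 claudins did not pass the test. *Cldn3* stood at 167, 186, 121, 180 and 148 CPM in controls and 78.7, 171, 155, 187 and 59.2 CPM in knockouts, where replicates 1 and 5 were below every control and the other three were within or above the control range (log2 fold change -0.30, adjusted p = 0.558). *Cldn1*, another barrier claudin, spread from 10.2 CPM in knockout replicate 1 to 69.7 CPM in knockout replicate 5, and those values lay on both sides of the control range of 25.6 to 58 CPM. *Cldn4* was above every control in 4 of 5 knockouts, at 46.6, 47.9, 57.1 and 35.8 CPM in replicates 2 to 5 against at most 30.7 CPM in controls, and replicate 1 was at 22.0 CPM (log2 fold change 0.70, adjusted p = 0.0777). Without knockout replicate 1 *Cldn4* passed the test (0.86, adjusted p = 0.0150). *Cldn2*, which forms cation pores, was at 0.948 ± 0.425 CPM in controls and 3.21 ± 2.51 CPM in knockouts (SD, n = 5), with a log2 fold change of 1.75 (adjusted p = 0.0557) that dropped to 1.16 without knockout replicate 1. DESeq2 called both *Cldn4* (adjusted p = 0.0319) and *Cldn2* (adjusted p = 0.0049). Those left were *Cldn10* (log2 fold change 0.02), *Cldn12* (0.12) and *Cldn15* (0.56), the last a pore-forming claudin like *Cldn10*, and *Cldn11* (-0.87), best known from myelin and Sertoli cells. Their groups overlapped and their adjusted p values were 0.139 or more.

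The summed level of the 12 claudins was 225 ± 31.0 CPM per kb in controls and 234 ± 27.1 in knockouts (SD, n = 5), while its make-up differed. *Cldn3* supplied 56.4 ± 2.53% of the sum in controls and 29.8, 54.7, 52.1, 54.9 and 22.8% in knockout replicates 1 to 5. *Cldn7* supplied 12.5 ± 0.497% in controls and 41.5, 15.9, 16.9, 16.7 and 44.0% in knockouts. In knockout replicates 1 and 5 *Cldn7* had thus passed *Cldn3* as the largest contributor, and in the other three it had not. Within single libraries, where no scaling enters, the ratio of *Cldn7* to *Cldn3* per kb ran from 0.208 to 0.241 in controls and from 0.292 to 1.92 in knockouts. The ratio of *Cldn4* to *Cldn3* ran from 0.103 to 0.118 and from 0.189 to 0.419. Neither ratio overlapped between the genotypes. These pairs were not planned beforehand, and *Cldn7* alone already separated the genotypes, so its ratio is not independent of that gap. *Cldn23* fell from 8.28 ± 1.2% to 4.16 ± 0.917% of the sum.

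**Figure D2:**
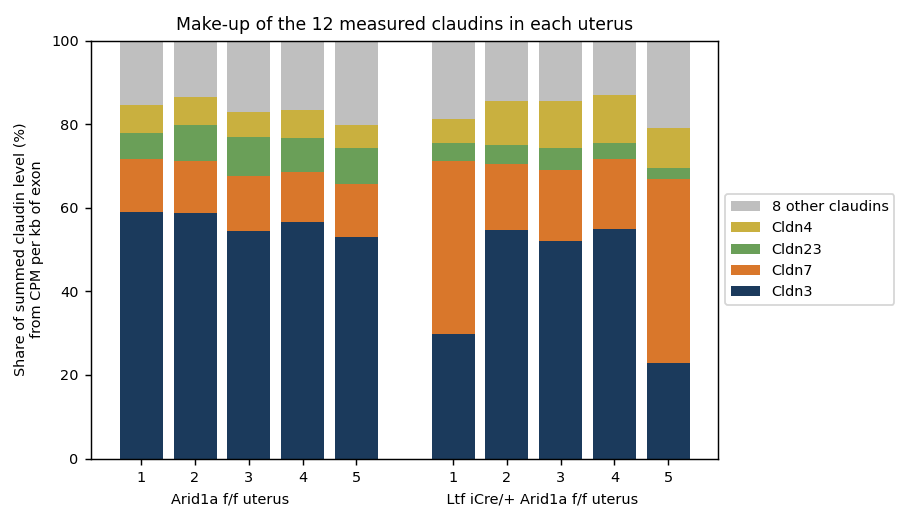
Share of the summed level of 12 claudins, in percent of CPM per kb of exon, for each of the 10 uteri, with *Cldn3*, *Cldn7*, *Cldn23* and *Cldn4* as coloured bands and the 8 other claudins in grey. *Cldn3* fills 53.1 to 58.9% of every control bar and 22.8 to 54.9% of the knockout bars, with *Cldn7* widest in knockout replicates 1 and 5.

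Of the tight junction genes other than claudins, the scaffold *Tjp3* and the cytoplasmic linker *Cgn* rose most and the scaffold *Tjp1* fell. *Tjp3* (ENSMUSG00000034917, chr10:81273207-81291581), which codes for ZO-3, was at 20.9, 20.5, 16.5, 20.6 and 16.1 CPM in controls and 90.2, 34.9, 32.5, 38.1 and 92.9 CPM in knockouts. All knockouts exceeded all controls and replicates 1 and 5 again stood highest. The log2 fold change of *Tjp3* was 1.61 (standard error 0.31, edgeR adjusted p = 0.0100), and with knockout replicates 1 and 5 both left out it was 0.90 (adjusted p = 0.00109). *Cgn* (ENSMUSG00000068876, chr3:94760069-94786492), cingulin, which links tight junctions to actomyosin, had 32.0, 26.0, 28.2, 32.9 and 26.6 CPM in controls and 82.1, 58.3, 50.9, 54.7 and 46.6 CPM in knockouts. Its groups were well separated (log2 fold change 1.01, standard error 0.15, edgeR adjusted p = 0.00278).

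*Tjp1* (ENSMUSG00000030516, chr7:65296165-65527781), which codes for ZO-1 and is also made in endothelium and other non-epithelial cells, moved the other way. Controls held 295, 241, 284, 229 and 221 CPM and knockouts 197, 202, 167, 159 and 169 CPM. Every knockout was below every control, by a log2 fold change of -0.51 (standard error 0.11, edgeR adjusted p = 0.0165). In the same samples *Tjp1* per kb exceeded *Tjp3* per kb in controls, at 32.5 ± 4.29 against 5.09 ± 0.650 CPM per kb. *Ocln*, *Marveld2* and *Marveld3*, whose MARVEL-domain products span the membrane beside the claudins, were higher. Occludin, *Ocln* (ENSMUSG00000021638, chr13:100496507-100552718), was at 38.2, 33.8, 28.8, 41.3 and 36.2 CPM in controls and 61.0, 46.9, 53.4, 45.9 and 47.4 CPM in knockouts, a narrow gap between the groups (log2 fold change 0.51, standard error 0.11, edgeR adjusted p = 0.0185, and 0.0556 without control replicate 2). *Marveld2*, tricellulin, which seals the points where cells meet at corners, rose from 16.5 ± 2.16 to 26.7 ± 5.73 CPM (log2 fold change 0.69, edgeR adjusted p = 0.0174). *Marveld3* rose from 8.62 ± 1.05 to 16.0 ± 6.53 CPM (log2 fold change 0.89, edgeR adjusted p = 0.0411). The call of *Marveld3* was fragile: it was kept without knockout replicate 2 or 3 and lost without any other single uterus, with an adjusted p of 0.0511 to 0.101. Junctional adhesion molecule A, *F11r*, was at 97.8 ± 6.14 and 99.5 ± 16.2 CPM (log2 fold change 0.02, adjusted p = 0.916).

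In adherens junctions the epithelial cadherin rose and the mesenchymal one fell. *Cdh1* (ENSMUSG00000000303, chr8:106603351-106670246), E-cadherin, was at 274, 238, 204, 256 and 214 CPM in controls and 595, 394, 312, 405 and 387 CPM in knockouts. No knockout value fell within the control range, and replicate 1 was the highest. Its mean rose from 237 ± 29.1 to 419 ± 105 CPM (SD, n = 5; log2 fold change 0.82, standard error 0.16, edgeR adjusted p = 0.0106). *Cdh2* (ENSMUSG00000024304), N-cadherin, known from neural and mesenchymal cells, stood at 14.3, 27.8, 33.0, 26.7 and 23.4 CPM in controls and 8.40, 14.4, 9.25, 10 and 12 CPM in knockouts. Control replicate 1 was just below knockout replicate 2, and 4 of 5 knockouts were below every control. The log2 fold change of *Cdh2* was -1.21 (standard error 0.22, edgeR adjusted p = 0.00723, two-sided exact permutation p = 0.0159). The ratio of *Cdh1* to *Cdh2* per kb ran from 10.9 to 33.8 in control libraries and from 48.4 to 125 in knockout libraries. *Cdh3*, P-cadherin, was at 11 ± 3.77 and 13.7 ± 6.40 CPM, with knockout values on both sides of the control range (log2 fold change 0.32, adjusted p = 0.604).

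*Nectin4* (ENSMUSG00000006411, chr1:171370099-171388598), an immunoglobulin-like adhesion molecule of epithelia, had the smallest adjusted p of the 37 genes. It was at 7.31, 7.82, 5.45, 7.85 and 6.96 CPM in controls and 30.6, 17.1, 18.6, 18.4 and 19.4 CPM in knockouts. Knockout replicates 2 to 5 lay close together, well above the controls, and replicate 1 was higher still. The log2 fold change was 1.55 (standard error 0.18, edgeR adjusted p = 0.00104) and ranged from 1.37 to 1.61 with single uteri left out. The other nectins did not pass the test, with log2 fold changes of 0.06 for *Nectin1*, 0.19 for *Nectin2* and 0.39 for *Nectin3*. *Nectin3* was above every control in 4 of 5 knockouts (two-sided exact permutation p = 0.0317, edgeR adjusted p = 0.0934).

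*Epcam* (ENSMUSG00000045394, chr17:87635979-87651129), the epithelial cell adhesion molecule, stood at 89.7, 102, 73.5, 93.9 and 83.7 CPM in controls and 330, 122, 104, 137 and 322 CPM in knockouts. Replicates 1 and 5 held over 300 CPM, and knockout replicate 3 was just above the highest control. *Epcam* rose by 1.19 on the log2 scale (standard error 0.32, edgeR adjusted p = 0.0370). It was 0.45 with knockout replicates 1 and 5 both left out (adjusted p = 0.0372), and the call was lost without any single control or without knockout replicate 1 or 5 (log2 fold change 0.95 to 1.24, adjusted p = 0.0624 to 0.0917). The catenins, which tie cadherins to the cytoskeleton, did not pass the test: *Ctnna1* had 297 ± 44.2 and 298 ± 69.3 CPM (log2 fold change 0.00, standard error 0.16) and *Ctnnd1* 37.6 ± 3.85 and 39.8 ± 9.04 CPM (0.08, standard error 0.14). For *Ctnnd1* 4482 exon bases are shared with a second annotated gene on the same strand, and STAR leaves out reads that fall in more than 1 gene, so its level is understated in all libraries.

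Of the desmosome genes, 3 of 4 that code for plaque proteins rose, and neither desmosomal cadherin passed the test. *Dsp* (ENSMUSG00000054889, chr13:38151294-38198577), desmoplakin, which binds keratin filaments, was at 82.2, 71.6, 76.8, 94.5 and 73.6 CPM in controls and 301, 140, 108, 134 and 177 CPM in knockouts. The lowest knockout exceeded the highest control and replicate 1 was the highest (log2 fold change 1.11, standard error 0.24, edgeR adjusted p = 0.0159). *Pkp3* (ENSMUSG00000054065, chr7:141078218-141090510), plakophilin 3, had 9.54, 11.3, 10, 11.3 and 10 CPM in controls and 28.3, 17.2, 16.9, 20.1 and 22.7 CPM in knockouts. Its controls lay within a narrow band and every knockout was above it (log2 fold change 1.01, standard error 0.15, edgeR adjusted p = 0.00290). *Pkp2*, plakophilin 2, was at 12.5, 14.2, 14.2, 13.8 and 11.3 CPM in controls and 33.8, 20, 14.8, 17.9 and 27.6 CPM in knockouts, where replicate 3 barely cleared the controls. *Pkp2* thus had a log2 fold change of 0.79 (edgeR adjusted p = 0.0336). Its call was lost without any single control or without knockout replicate 1 or 5 (log2 fold change 0.60 to 0.81, adjusted p = 0.0534 to 0.0768). The desmosomal cadherins were *Dsg2* (36.8 ± 4.46 and 57.0 ± 20.7 CPM, log2 fold change 0.63, adjusted p = 0.0811) and *Dsc2* (19.0 ± 3.94 and 25.3 ± 4.63 CPM, 0.41, adjusted p = 0.130). *Jup*, plakoglobin, which serves desmosomes and adherens junctions alike, was the plaque protein that did not pass (67.7 ± 11.2 and 78.8 ± 24.3 CPM, 0.22, adjusted p = 0.522).

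Leaving aside *Cldn6*, which is given as a bound and cannot be ranked, the largest change of the 37 genes was in *Gjb2* (ENSMUSG00000046352, chr14:57098600-57104702), an epithelial connexin. Controls held 3.99, 2.58, 2.15, 3.86 and 4.71 CPM and knockouts 533, 29.6, 21.9, 62.1 and 326 CPM. The lowest knockout was several times the highest control, and the knockouts themselves differed widely, with replicates 1 and 5 far above the rest. On the log2 scale *Gjb2* rose by 5.81 (standard error 0.93, edgeR adjusted p = 0.00450), 4.99 without knockout replicate 1 and 3.45 without knockout replicates 1 and 5 (adjusted p = 0.000238). *Gja1* (ENSMUSG00000050953, chr10:56377330-56402513), the main connexin of uterine smooth muscle and of decidualizing stroma, was at 183, 185, 181, 141 and 162 CPM in controls and 178, 261, 168, 170 and 126 CPM in knockouts. Its groups overlapped, with 1 knockout above and 1 below all controls (log2 fold change 0.08, standard error 0.17, adjusted p = 0.798). Within libraries the ratio of *Gjb2* to *Gja1* per kb ran from 0.0505 to 0.124 in controls and was 12.8, 0.484, 0.557, 1.56 and 11 in knockout replicates 1 to 5.

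Other junction genes, 73 chosen by name, were read beside the 37. Of these 67 were tested, and 12 were higher and 7 lower in knockouts, against 5.19% and 4.51% of all tested genes. The median log2 fold change was 0.10. Connexins were among them. *Gja3* was at 0.0559, 0.0697, 0.157, 0.270 and 0.373 CPM in controls and 10.4, 2.08, 2.17, 4.49 and 3.94 CPM in knockouts, a log2 change of 4.63 (standard error 0.63, edgeR adjusted p = 0.00207). *Gjb5* followed with 1.20 (0.733 ± 0.228 and 1.68 ± 0.365 CPM, lost without control replicate 2 at an adjusted p of 0.0529). Both were low in controls and their groups did not overlap. *Gja4*, a connexin of vessels, and *Gjc1* were the 2 connexins that fell (log2 fold changes of -0.85 and -0.48), named here to complete the count although the rule for naming genes does not reach them. The pannexin *Panx2* was higher as well, at 0.116 ± 0.0731 and 0.669 ± 0.297 CPM (2.50).

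**Figure D3:**
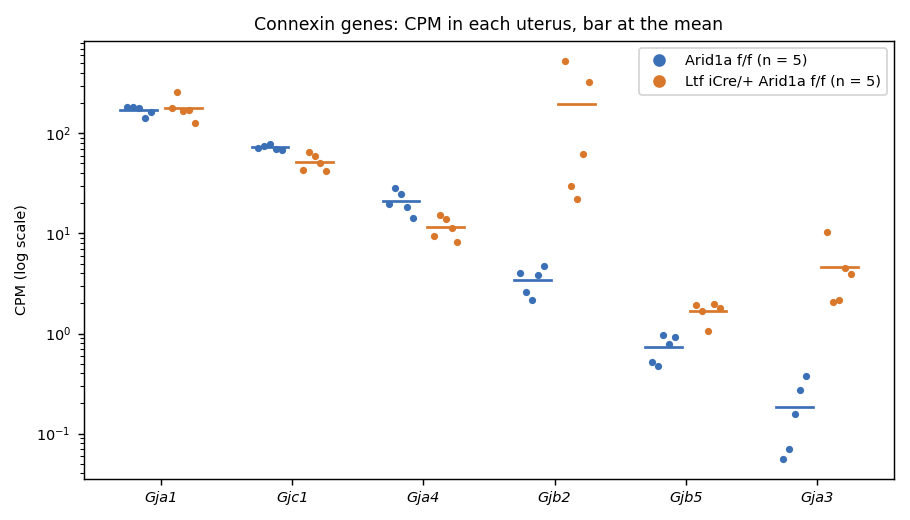
Level of 6 connexin genes in each uterus, in CPM on a log scale, with controls in blue, knockouts in orange and a bar at each group's mean. *Gja1* is level between the genotypes, *Gjc1* and *Gja4* are lower in knockouts, and *Gjb2*, *Gjb5* and *Gja3* are higher, with the 5 knockout values of *Gjb2* spread from 21.9 to 533 CPM.

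Other genes of the wider list belonged to the other classes. *Evpl* and *Perp*, an envelope plaque protein and a desmosome-associated membrane protein, rose by log2 fold changes of 1.31 and 1.28, and *Dsg3*, a desmosomal cadherin of stratified epithelia, fell from 0.845 ± 0.416 to 0.0967 ± 0.0542 CPM (-3.09, edgeR adjusted p = 0.00576). *Cxadr*, a tight junction-associated adhesion protein, was 33.3 ± 1.25 CPM in controls and 64.8 ± 21.9 CPM in knockouts (0.96). *Cdh16*, a cadherin known from the kidney, was higher (3.36, edgeR adjusted p = 0.0250) with 1 overlapping pair, since control replicate 4 had 2.09 CPM and knockout replicate 5 had 0.593 CPM. Without control replicate 4 its log2 fold change was 4.37, and the call was lost without control replicate 2, 3 or 5 (adjusted p = 0.0586 to 0.0695). *Perp* lost its call without control replicate 2 (1.25, adjusted p = 0.0574) or 3 (1.19, 0.0598). *Cdh5*, the endothelial cadherin, fell from 287 ± 31.9 to 120 ± 37.3 CPM (-1.26, edgeR adjusted p = 0.00421).

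General epithelial markers moved with the junction genes. Of 11 such markers, among them the keratins *Krt7*, *Krt8*, *Krt18* and *Krt19* and the transcription factors *Elf3*, *Ehf* and *Grhl2*, 7 were higher and none lower in knockouts (median log2 fold change 0.70). *Krt8* rose by 0.87 and *Krt7* by 1.83 on the log2 scale, and *Krt18* (0.27) and *Ehf* (0.10) did not pass the test. Their summed level was 608 to 800 CPM in controls and 1960, 952, 839, 994 and 1270 CPM in knockout replicates 1 to 5, so the genotypes did not overlap and replicates 1 and 5 were highest. In bulk samples more cells of a type and more RNA of a gene per cell cannot be told apart. Markers of subsets of the epithelium went other ways. Of 6 luminal markers 2 were higher and 1 lower (summed level 562 to 963 CPM in controls, 447 to 967 in knockouts), and of 7 gland markers none was higher and 1 lower (96.7 to 144 CPM against 34.2 to 54.8). The gland markers *Prss28* and *Prss29* were at 0 in some libraries, and no marker of any list was at 0 in all. Counts of called markers, here and below, are to be read against 5.19% higher and 4.51% lower of all tested genes.

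Markers of other cell types were read as well, since several junction genes are not particular to epithelium. All 7 endothelial markers were lower (summed level 768 to 1070 CPM in controls and 354 to 539 CPM in knockouts), and *Cdh5* and *Esam* and *Cldn5*, which are also in the wider junction list, are among them. Of 8 stromal markers 2 were lower (14700 to 21600 and 12200 to 21300 CPM), and of 6 myometrial markers none was called (6160 to 10900 and 3160 to 8670 CPM). Of 5 mesothelial markers 2 were higher (180 to 232 and 170 to 286 CPM), no macrophage marker of 5 was called (131 to 229 and 177 to 477 CPM), and 1 neutrophil marker of 5 was higher (5.58 to 22.4 and 12 to 807 CPM, the last in knockout replicate 5). The part of these cell types in the fall of *Tjp1*, *Cdh2* and *Cdh5* or in the other changes was not tested.

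The libraries were also scaled to the 11 epithelial markers, by the median of their ratios, in place of all genes. This scaling was chosen after the data were seen, and its reference genes were themselves higher in knockouts by unequal amounts. It lowered the median log2 fold change of all tested genes from 0.03 to -0.56, and the share of called genes that were higher went from 53.5% to 6.26%. The median of the 37 genes went from 0.41 to -0.19. Rescaling moves all genes by nearly the same amount, so it cannot test where the 37 genes lie relative to all genes. On this scale 5 of the 37 genes were higher and 11 lower, where 590 of all 25146 tested genes were higher and 8833 lower. The 11 lower calls therefore do not set the junction genes apart. Those still higher were *Gjb2* (4.95), *Cldn6* (4.49), *Tjp3* (0.93), *Nectin4* (0.93) and *Dsp* (0.43, edgeR adjusted p = 0.0374). *Cdh1* (0.19, adjusted p = 0.281), *Cgn* (0.38, 0.0547), *Pkp3* (0.38, 0.0909), *Cldn7* (0.45, 0.0672), *Epcam* (0.51, 0.0888), *Marveld2* (0.08), *Marveld3* (0.23) and *Pkp2* (0.13) were no longer called, and *Ocln* changed sign (-0.07, adjusted p = 0.728). The 4 genes lower on the usual scale were lower by more, with *Cdh2* at -1.79, *Cldn8* at -1.49, *Cldn23* at -1.46 and *Tjp1* at -1.11.

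**Figure D4:**
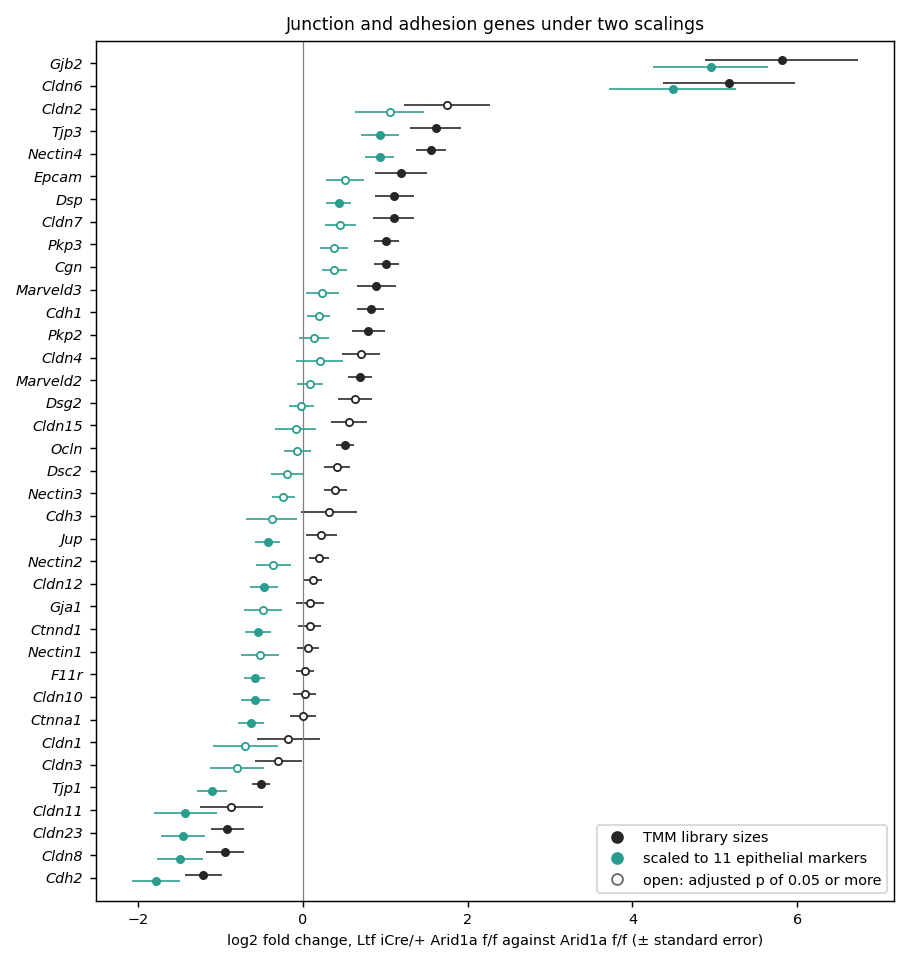
Log2 fold change of knockout against control, with its standard error, for the 37 genes under TMM library sizes (black) and with libraries scaled to 11 epithelial markers (green), where filled points have an adjusted p under 0.05. The green points lie to the left of the black ones, and filled green points to the right of 0 are *Gjb2*, *Cldn6*, *Tjp3*, *Nectin4* and *Dsp*.

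The knockout uteri differed among themselves. Of the 14 genes that were higher, knockout replicate 1 had the highest value in 12 and replicate 5 in 2, and replicate 3 had the lowest value in 8. The median log2 ratio of these 14 genes to the control mean was 1.56, 0.71, 0.56, 0.76 and 1.11 in replicates 1 to 5. These 14 were picked for being high in the same uteri. Over all 37 genes the medians were 0.77, 0.38, 0.17, 0.23 and 0.47. Replicate 1 was then the highest knockout in 24 genes, and replicate 5 was the highest in 4 and the lowest in 9. These replicates 1 and 5 also had the highest summed epithelial markers, the lowest *Lpar3* (6.44 and 8.32 CPM against 30.9 to 41.9 in the other knockouts) and the lowest *Calb1* (130 and 170 CPM against 293 to 615), both genes of the receptive luminal epithelium. With replicates 1 and 5 left out together 14 of the 37 genes were higher and 3 lower, where 1253 of all 25046 tested genes were higher and 1105 lower. *Marveld3* (0.41, adjusted p = 0.108), *Pkp2* (0.41, 0.0726) and *Cldn8* (-0.94, 0.0563) then lost their calls, and *Cldn4* (0.97, 0.00343) and *Nectin2* (0.34, 0.0487) gained one.

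Libraries held 65351817 to 72702411 counts in controls and 59296537 to 67990486 in knockouts. *Arid1a* itself was at 213 ± 22.9 CPM in controls and 185 ± 15.9 CPM in knockouts (SD, n = 5; log2 fold change -0.20, standard error 0.09, adjusted p = 0.201, two-sided exact permutation p = 0.0397), and 4 of 5 knockouts were below every control. On the epithelial scale *Arid1a* was at -0.80 (edgeR adjusted p = 0.00575). That scale also moved the median of all tested genes from 0.03 to -0.56, so this call is no separate sign of the deletion. *Ltf*, whose locus carries iCre, was higher in all knockouts (4.75 ± 3.92 and 714 ± 1190 CPM, log2 fold change 7.23, 5.27 without knockout replicate 5 and 7.88 without control replicate 1).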

How the data were processed

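Uterine RNA of 10 mice was sequenced by the authors as paired-end mRNA libraries. Reads were trimmed with cutadapt 1.18 and Trim Galore 0.6.4 and aligned to GRCm38 with STAR 2.7.3a, per the labels. The authors deposited raw counts of reads per gene for 45706 Ensembl identifiers, without normalization. The annotation release and the strand setting are not given in the sources used here. Symbols were taken from GENCODE M21 (45143 identifiers found) and promoters from RefSeq (GRCm38.p6).

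Genes averaging 1 count or more per library were kept and compared between genotypes by the quasi-likelihood test of edgeR 4.0.16 in R 4.3.3, with TMM library sizes, no other factor, and Benjamini-Hochberg adjustment over all of them at 0.05. CPM use the TMM library sizes. Single genes were also compared by an exact two-sided permutation of log2(CPM + 0.5) over the 252 arrangements of 5 uteri against 5, whose smallest p is 0.00794. With 3 counts a gene stood at about 0.0433 CPM in controls. Setting *Cldn6*, the gene given as a bound, to that bound left the median of the 37 genes at 0.41. For the 73 other genes the median was 0.10, and 0.07 with the 1 such gene at its bound. The floor covers counting error only, while the SDs and standard errors include differences between uteri.

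The 37 genes and all lists were chosen with earlier results of these data known. The pairs of genes given as ratios were not planned beforehand. The text names all 37, *Arid1a*, *Ltf*, markers where their list is described, and the 12 called genes of the wider list with the largest absolute log2 fold change, some of which are not reported here. The mice were separate samples per the labels, and no pair of libraries within a genotype was a duplicate (chi-square of at least 36.1 per gene). Pairs across the genotypes were not compared. Alternatives were DESeq2 1.42.0, RLE size factors, other filters, a pseudocount of 0.1, the replicate number as a block, the longest transcript, each uterus left out and, chosen after seeing the data, knockout replicates 1 and 5 left out together and scaling to epithelial markers. The fits were tested on simulated data. Drawings used matplotlib 3.10.9.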

Additional observations from a re-analysis of the deposited data

Results flagged for a closer look

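Within each genotype, 102 groups of 5 uteri were examined for a single value whose gap to its nearest neighbour exceeded 0.71 of the group's range (Dixon's 95% limit), and 6 values did. Chance gives about 1 in 20 such groups, which is the share to read this count against. Knockout replicate 1 stood apart for *Cldn2* (7.54 CPM, next 2.98) and for *Nectin4* (30.6 CPM, next 19.4). Without it the log2 fold change of *Cldn2* was 1.16. Control replicate 5 was low for *Jup* (48.1 CPM, next 70.4), and control replicate 4 was high for *Cdh16* (2.09 CPM, next 0.486). *Ltf* was high in control replicate 1 (11.7 CPM, next 3.76) and in knockout replicate 5 (2830 CPM, next 383).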

How the results depend on the processing

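The 2438 called genes (1305 higher, 1133 lower) became 4062 with DESeq2 (2108 and 1954) and 9423 on the epithelial scale (590 and 8833). With single uteri left out there were 1204 (without control replicate 2) to 2381 called genes, 594 to 1296 higher and 610 to 1085 lower, with 1248 without control replicate 3 and 1414 without control replicate 4. Of the 37 junction genes 18 were called, 14 to 19 with single uteri left out and 21 with DESeq2, which added *Cldn2*, *Cldn4* and *Dsg2*. On the epithelial scale 5 were higher and 11 lower. The wider list had 19 called genes, 12 to 22 with single uteri left out (12 without control replicate 2) and 33 on the epithelial scale. RLE size factors and both other filters changed no call among the 37.

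The replicate numbers did not pair the uteri: deviations of same-numbered uteri correlated at 0.05, 0.09, -0.16, 0.05 and 0.22, and 1 of 5 knockouts correlated best with its own number. With the number as a replicate block 1704 genes were called (845 higher), 15 of the 37 among them (11 higher, 4 lower), and 17 of the wider list. *Marveld3* (0.81), *Epcam* (1.02), *Pkp2* (0.73) and *Gjb5* (1.22) lost their calls, *Gjb2* was at 4.79, and *Ctnna1* at -0.01.

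Among the 37, signs turned for genes that were not called and, on the epithelial scale, for *Ocln*. Without knockout replicate 1 the log2 fold changes were 0.05 for *Cldn1*, -0.07 for *Cldn10*, -0.08 for *F11r*, -0.15 for *Ctnna1* and -0.07 for *Ctnnd1*. Without knockout replicate 2 they were -0.01 for *Ctnna1*, -0.04 for *Nectin1* and -0.09 for *Gja1*. *Cldn10* was at -0.01, -0.01, -0.04 and -0.02 without control replicates 1, 2 and 3 or knockout replicate 4, *F11r* at -0.01 without control replicate 3, and *Ctnna1* at -0.02 and -0.08 without control replicates 4 and 5. The highest values with single uteri left out were 0.10 for *Cldn10*, 0.08 for *F11r* and *Ctnna1*, 0.14 for *Ctnnd1*, 0.13 for *Nectin1* and 0.19 for *Gja1*. Without knockout replicates 1 and 5, *Cldn3* was at 0.09, *Cldn10* -0.01, *Cldn12* -0.02, *F11r* -0.13, *Cdh3* -0.16, *Ctnna1* -0.18 and *Ctnnd1* -0.04. On the epithelial scale *Cldn10* (-0.58), *Cldn12* (-0.48), *F11r* (-0.59), *Ctnna1* (-0.63), *Ctnnd1* (-0.55) and *Jup* (-0.43) were called lower, as was *Cldn11* (-1.43), and *Cldn15* (-0.09), *Ocln* (-0.07), *Cdh3* (-0.38), *Nectin1* (-0.52), *Nectin2* (-0.36), *Nectin3* (-0.24), *Dsg2* (-0.02), *Dsc2* (-0.19) and *Gja1* (-0.49) turned negative without a call. The epithelial scale moved the median of all tested genes from 0.03 to -0.56, so small positive fold changes turned negative by construction. The cause of the other turns of sign was not tested. Calls of *Cldn6*, *Cldn23*, *Marveld2*, *Tjp1*, *Tjp3*, *Cgn*, *Cdh1*, *Cdh2*, *Nectin4*, *Dsp*, *Pkp3* and *Gjb2* held with each uterus left out. Depth limits *Cldn6* alone among the 37.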
